A study of Homo sapiens with 6 samples.

Results

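Homologous recombination repairs DNA double-strand breaks by copying an intact template, usually the sister chromatid, and 9 of its genes were followed in OVCAR5 cells treated with the spirocyclic dimer SpiD7. The genes, BRCA1, BARD1, PALB2, BRCA2, RAD51C, RAD51D, RAD54L, FANCD2 and BRIP1, were taken by name for their place in this pathway and not for any measured value. They are 9 of 29982 gene symbols in the deposited table, and all 9 are among the 13287 genes whose FPKM averaged 1 or more. FPKM scales the fragments of a transcript by its length and by the reads mapped in the library, so that levels of different genes can be set side by side. OVCAR5 is an established cancer line, taken here as ovarian by its label, and its origin was not tested. All results are from this 1 line. Of the 6 libraries, 2 came from cells given the vehicle, DMSO, 2 from cells given 10 μM SpiD7 for 2 h, and 1 each from cells given it for 6 h and for 12 h. All cells were grown in the same medium, and the labels give no duration for DMSO.

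The pathway works in steps. Resection of the broken end exposes single-stranded DNA, BRCA1 with its partner BARD1 favours this step and recruits PALB2, and PALB2 brings BRCA2 to the resected DNA. RAD51C and RAD51D assist the search for the template, the motor protein RAD54L acts in strand invasion, FANCD2 with FANCI marks DNA crosslinks, and the helicase BRIP1 binds BRCA1. Many of these genes are expressed most in the S and G2 phases of the cell cycle, and inherited loss of several of them predisposes to ovarian cancer.

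Replicate 2 of DMSO and of 2 h was taken as having no column of its own. From their values alone, the columns named for replicate 2 were read as the authors' mean of both libraries of a group. The column names do not say so. On this reading, the second libraries, called recovered here, are what remained after the first library was subtracted. Every statement on a recovered library rests on that step. The study's methods give an approximate sequencing depth common to all samples, but the table used here holds no read counts, so that no counting error is given for a library or a gene. Among ovarian carcinoma and epithelial markers, EPCAM was at an FPKM of 77.4 to 86.5, CDH1 at 10.4 to 19.3 and KRT7 at 209 to 491. KRT8 was at 1459 to 2194 and KRT18 at 1242 to 1742. PAX8 was at 1.64 to 2.12, MUC16 at 0.07 to 0.69 and WT1 at 0.03 to 0.14, so that WT1 and MUC16 were nearly absent. KRT7 was highest at 12 h. Of 3 intestinal markers, CDX2 was at 1.58 to 4.40, highest at 12 h and above PAX8 in 5 of the 6 libraries, CDH17 was at 0.08 or less and LGALS4 at 0.06 to 0.41. The leukocyte marker PTPRC was at 0.03 or less. PECAM1, an endothelial marker, was at 10.7 and 7.74 in the recovered DMSO and 2 h libraries against 0.32 to 0.96 in the other 4. The fibroblast marker COL1A1 was at 2.18 and 1.98 in these recovered libraries against 0.60 and 0.76 in the first ones, 1.19 at 6 h and 1.70 at 12 h. The part of these markers in the results was not tested.

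In DMSO, the 9 genes spanned an FPKM of 1.42 to 34.6. Averaged over the 6 libraries, the order ran from RAD51D (27.9) and RAD51C (26.4) through BRCA1 (12.1), FANCD2 (11.4), RAD54L (9.87), PALB2 (8.05) and BARD1 (5.11) to BRCA2 (2.90) and BRIP1 (2.12). The DMSO values of RAD51C lay above those of BRCA1, those of PALB2 above those of BARD1, and those of BARD1 above those of BRCA2. For every other pair of neighbours in this order the DMSO values overlapped, although BRCA2 was above BRIP1 and RAD54L above PALB2 in all 6 libraries. The value listed for RAD51D is not its own. In each library that value equals the values listed for RFFL and for the read-through gene RAD51L3-RFFL, and the locus given for it, chr17:35009111-35121522 of hg38, covers all of them. On hg38, the table places BRCA1 at chr17:43044294-43125483, BARD1 at chr2:214725645-214809711, PALB2 at chr16:23603161-23641357, BRCA2 at chr13:32315479-32399672, RAD51C at chr17:58692572-58734342, FANCD2 at chr3:10026383-10108291 and BRIP1 at chr17:61679185-61863559. These are the spans listed in the table, and that of BRCA1 stops short of the GENCODE gene, which ends at 43170245. Where stated, counts are also given for the 8 genes with values of their own. The span listed for RAD54L (chr1:46247694-46303366) runs past the GENCODE gene, which ends at 46278473. This listed span overlaps LRRC41 on the opposite strand, and the sources used here do not state that reads were counted by strand. LRRC41 had its highest FPKM, 23.6, at 12 h, where RAD54L was lower than in the first DMSO library and higher than in the recovered one.

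**Figure D1:**
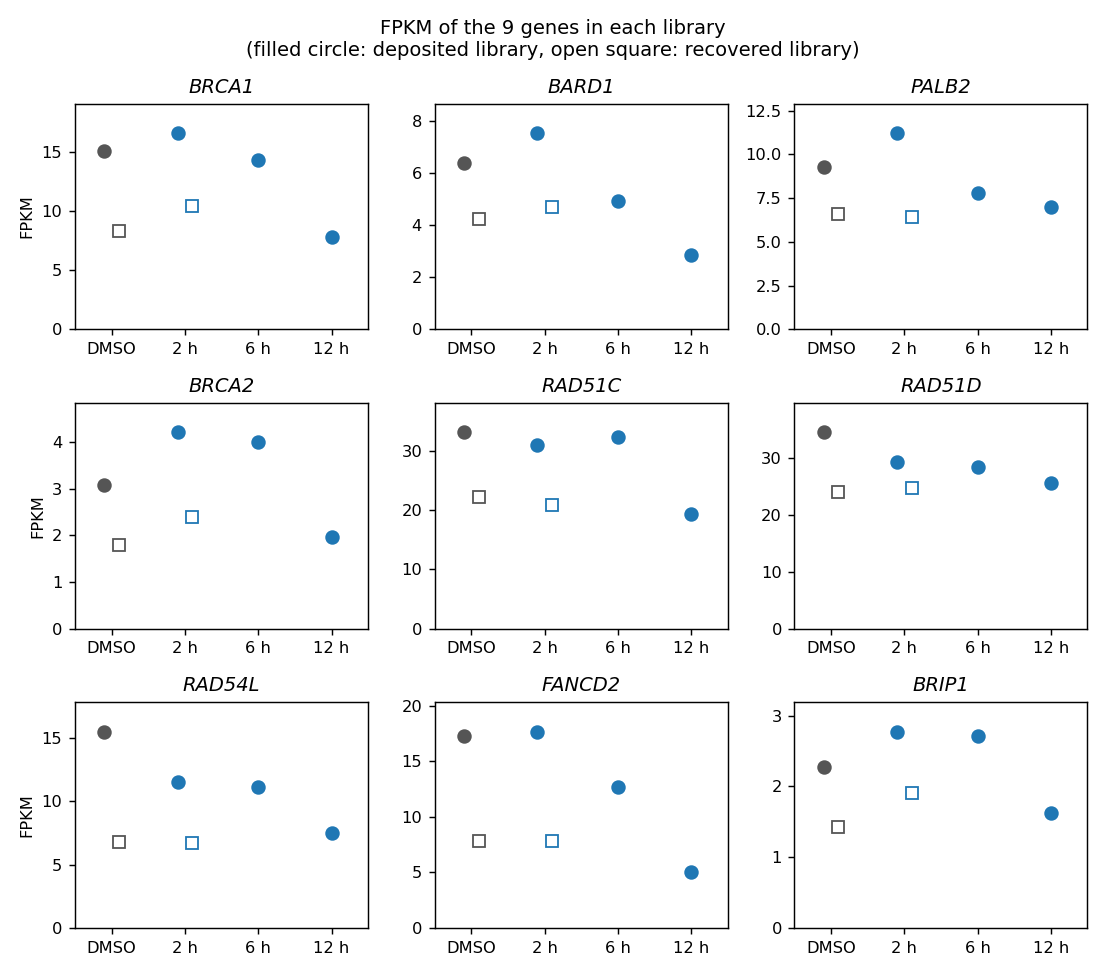
FPKM (linear axis from 0) of the 9 genes in the 2 DMSO libraries (grey) and the 4 SpiD7 libraries (blue), with filled circles for deposited and open squares for recovered libraries and no error bars, since each point is 1 library. The recovered library lies below the first one for all 9 genes in DMSO and at 2 h, and the 12 h library lies below the 6 h library for all 9.

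The DMSO replicates differed from each other in every member. All 9 genes had lower values in the recovered DMSO library than in the first, by 0.49 to 1.18 on the log2 scale (median -0.64), against 54.1% of all 13287 genes (median -0.06). At 2 h the recovered library was again lower for all 9, with a median of -0.67. Lower recovered libraries in both groups were found for 46.7% of all genes. RAD54L and FANCD2 differed most between the DMSO libraries, with log2 differences of -1.18 and -1.13, and PALB2 least, with -0.49. Genes of DNA replication moved with them: 21 of 21 genes on a list of S-phase replication genes were lower in the recovered DMSO library, with a median of -0.94, and so were the proliferation markers MKI67 (66.5 and 30.3) and TOP2A (287 and 128). What part the cycling of the cells had in these differences was not tested. In bulk RNA, fewer cells in S phase and less RNA per cell cannot be told apart.

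At 2 h, no member of the group passed the test. The 2 SpiD7 libraries were compared with the 2 DMSO libraries by limma on log2(FPKM + 0.1), a scale on which differences of weakly expressed genes come out too small, and a gene was called at a Benjamini-Hochberg adjusted p under 0.05 if it also differed by more than 2-fold. Called were 0 of the 9 genes, against 0.0226% of all genes (3), and every member had an adjusted p of 1.0 in limma. An unadjusted p under 0.05 was found for 0 of the 9 and for 2.84% of all genes. None of the 9 differed more than 2-fold, as 2.98% of all genes did. The labels do not say whether the libraries came from separate cultures, so that the p-values measure the spread between these libraries only.

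BRCA2 had the largest difference at 2 h. With DMSO its FPKM was 3.07 (first) and 1.79 (recovered), against 4.21 and 2.40 after 2 h of SpiD7, so that the groups overlapped. The log2 difference was 0.43 (standard error 0.44, 95% interval -0.87 to 1.72, unadjusted p = 0.394 and adjusted p = 1.0 from limma). BRIP1 followed with 2.28 and 1.42 in DMSO and 2.77 and 1.91 at 2 h, a log2 difference of 0.34 (standard error 0.35). RAD54L was the lowest, with 15.5 and 6.80 in DMSO against 11.5 and 6.69 at 2 h and a log2 difference of -0.23 (standard error 0.56, 95% interval -1.86 to 1.41). The interval for RAD54L, from a fit without a replicate block, holds changes of more than 2-fold in either direction. Its width also takes in the difference between the replicates. With the replicates as a block, paired by number alone, the standard error for RAD54L was 0.14. FANCD2 hardly differed within either pair, at 17.3 and 17.7 in the first DMSO and 2 h libraries and 7.87 and 7.86 in the recovered ones. In 0 of the 9 genes did both 2 h libraries exceed both DMSO libraries (13.7% of all genes), and in 0 were both lower (8.1%). The replicates of the members differed by a median of -0.64 in DMSO and -0.67 at 2 h, against -0.06 over all genes. Such a gap leaves little room for groups that do not overlap, so that these counts do not show whether the members changed. When libraries with the same number were compared, BRCA1, BARD1, BRCA2 and BRIP1 were higher at 2 h in both pairs, which held for 31.5% of all genes.

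At 6 h, the single SpiD7 library lay within the range of the DMSO libraries for most of the group. The median log2 difference from the mean of both DMSO libraries was 0.12 (all genes 0.03), and 0 of the 9 were more than 2-fold away, against 8.76% of all genes. BRCA2 was at 3.99 and BRIP1 at 2.71, both above either DMSO library, as were 31.6% of all genes. No member lay below both, as did 29.2% of all genes. The DMSO libraries lay further apart in the members (median -0.64) than in all genes (-0.06), so that these shares are not a like baseline. Against the first DMSO library alone, 7 of the 9 were lower (median -0.25), as were 53.1% of all genes. Against the recovered one all 9 were higher (median 0.68), as were 55.3% of all genes. For the members other than BRCA2 and BRIP1, the direction at 6 h thus rests on the DMSO library. There is no replicate at 6 h or 12 h, and no test was made there.

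At 12 h all 9 genes were below the DMSO mean, as were 54.3% of all genes, with a median log2 difference of -0.44 (all genes -0.05) and a range of -1.20 to -0.14. The 8 genes with values of their own had a median of -0.47. FANCD2 was the only member more than 2-fold lower, against 3.76% of all genes. Below both DMSO libraries were 4 of the 9 (FANCD2, BARD1, RAD51C and BRCA1), against 35.6% of all genes. The distance from the first DMSO library was wide, with all 9 lower (54.8% of all genes) and a median of -0.78, and 3 members (FANCD2, BARD1 and RAD54L) were more than 2-fold lower, against 4.03% of all genes. Against the recovered DMSO library the median was 0.08, 4 members were lower (50.2% of all genes), and 0 were more than 2-fold lower, against 7.56% of all genes. For 5 of the 9 genes, PALB2, BRCA2, RAD51D, RAD54L and BRIP1, the direction at 12 h thus rests on the DMSO library.

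**Figure D2:**
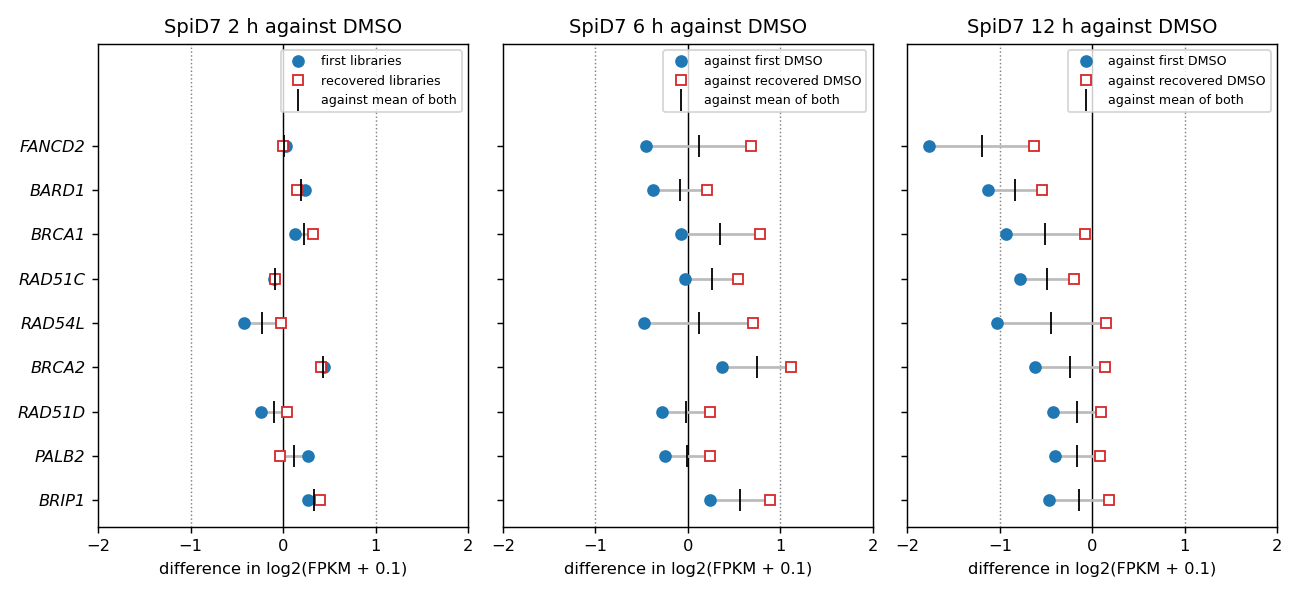
Difference in log2(FPKM + 0.1) between SpiD7 and DMSO at 2 h, 6 h and 12 h for each of the 9 genes, with dotted lines at 2-fold. At 2 h, circles compare the first libraries and squares the recovered ones, at 6 h and 12 h the single SpiD7 library is set against the first (circles) or recovered (squares) DMSO library, black ticks use the mean of both, and at 12 h both symbols lie left of 0 only for FANCD2, BARD1, BRCA1 and RAD51C.

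FANCD2, which is monoubiquitinated together with FANCI when replication forks meet crosslinks, had the lowest 12 h value of the group relative to DMSO. Its FPKM was 17.3 and 7.87 in DMSO, 17.7 and 7.86 after 2 h, 12.7 after 6 h and 5.04 after 12 h. The 12 h library lay below all 5 others. The log2 difference at 12 h was -1.76 from the first and -0.63 from the recovered DMSO library. BARD1, the obligate partner of BRCA1 in their ubiquitin ligase, was at 6.39 and 4.23 in DMSO, 7.53 and 4.70 after 2 h, 4.92 after 6 h and 2.87 after 12 h. It was also lowest at 12 h, by -1.13 and -0.54 against the first and recovered DMSO libraries.

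BRCA1 itself was at 15.1 and 8.31 in DMSO, 16.6 and 10.4 after 2 h, 14.4 after 6 h and 7.85 after 12 h. Its 12 h value was below the recovered DMSO library by only 0.08 on the log2 scale, far less than the 0.86 by which the DMSO libraries differed. RAD51C, which acts with BRCA2 and RAD51D on resected DNA, was at 33.1 and 22.1 in DMSO, 30.9 and 20.8 after 2 h, 32.3 after 6 h and 19.2 after 12 h. It was lower at 12 h than the recovered DMSO library by 0.20. In these 4 genes the 12 h library was the lowest of all 6.

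The remaining genes at 12 h lay between the DMSO libraries. BRCA2 was at 1.97 and BRIP1 at 1.62 at 12 h, each just above the recovered DMSO library. PALB2, the bridge between BRCA1 and BRCA2, was at 9.30 and 6.60 in DMSO, 11.2 and 6.42 after 2 h, 7.81 after 6 h and 6.98 after 12 h. RAD54L was at 11.2 at 6 h and 7.53 at 12 h. The value listed for RAD51D was the steadiest, with 34.6 and 24.2 in DMSO, 29.4 and 24.8 after 2 h, 28.6 after 6 h and 25.7 after 12 h.

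The step from 6 h to 12 h went the same way in every member. All 9 genes, and all 8 with values of their own, were lower at 12 h than at 6 h, against 56.7% of all genes. The median log2 difference was -0.75 (all genes -0.06). FANCD2 was lower by 1.31 in log2 terms, BRCA2 by 0.99 and BRCA1 by 0.86, whereas PALB2 and RAD51D differed by -0.16 and -0.15 only. Only FANCD2 passed 2-fold, as 2.04% of all genes did. These are 2 single libraries, and the DMSO libraries differed from each other by a median of -0.64 in these genes.

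Long transcripts were lower at 12 h in general. Each gene was given the length of its longest annotated transcript, a protein-coding one where there was any. Among genes of 5010 bases or more the median log2 difference from DMSO at 12 h was -0.17, against 0.03 at 2041 bases or less. By this measure 6 of the 9 members (BRCA1, BARD1, BRCA2, RAD51D, FANCD2 and BRIP1) belong to the longer class. RAD51D does so through a transcript of 9988 bases, and its value is not its own. After subtraction of the median of genes of like length, the members' median at 12 h was -0.33 and 8 of 9 were lower than DMSO, BRIP1 being the exception. Below both DMSO libraries were then 3 of the 9, without BRCA1. FANCD2 was at -1.02 and BARD1 at -0.66 on this scale.

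Ratios of partner genes do not depend on how a library is scaled. The FPKM ratio of BRCA1 to BARD1 was 2.36 and 1.97 in DMSO, 2.20 and 2.22 after 2 h, 2.92 after 6 h and 2.74 after 12 h. Both later libraries thus lay above both DMSO and both 2 h libraries. BRCA2 to PALB2 was 0.33 and 0.27 in DMSO, 0.37 and 0.37 after 2 h, 0.51 after 6 h and 0.28 after 12 h, highest at 6 h. FANCD2 to FANCI, the members of a single clamp, was 0.54 and 0.50 in DMSO, 0.56 and 0.53 at 2 h, and 0.45 and 0.46 at 6 h and 12 h. FANCI had an FPKM of 32.2 and 15.9 in DMSO and 11.1 at 12 h, and was likewise lowest at 12 h.

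**Figure D3:**
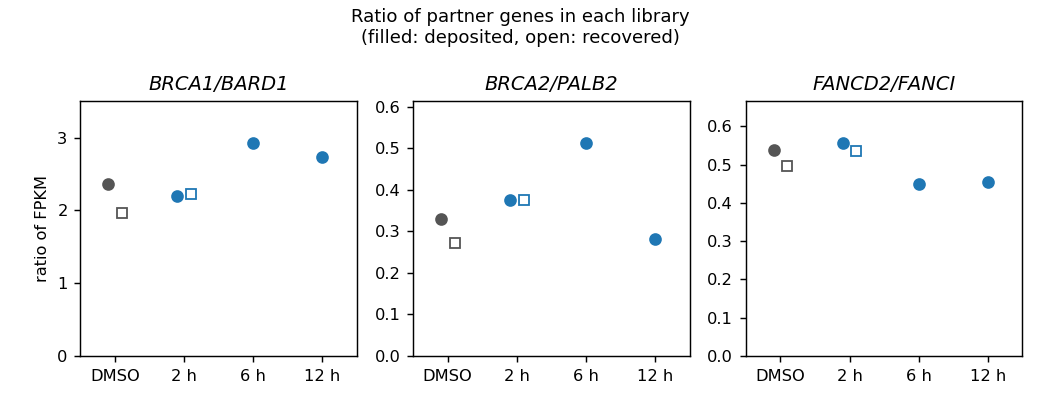
Ratio of the FPKM of partner genes (linear axes from 0) in each library, grey for DMSO and blue for SpiD7, filled circles for deposited and open squares for recovered libraries. The BRCA1 to BARD1 ratio is 2.92 at 6 h and 2.74 at 12 h against at most 2.36 in the other 4 libraries, and the FANCD2 to FANCI ratio is lowest at 6 h and 12 h.

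The stretch around the transcription starts of the 9 genes was read for letters that transcription factors of the cell cycle are known to bind. The octamer TTCCCGCC, an E2F-type sequence, was searched on both strands of RefSeq windows of GRCh38.p14, and all 9 genes were matched. The 9 genes have 13 windows in this table. The octamer was found in 4 of the 13, belonging to FANCD2, RAD54L and BRIP1, and in 3.16% of all 35116 windows. CCAAT was found in 5 of the 13 and in 34.6% of all windows, and the GC box GGGCGG, which the octamer can overlap, in 8 of the 13 and in 45.0%. For FANCD2, RAD54L and BRIP1, only the first window with the octamer is shown, so that not all 4 are given. Each is shown from 150 bases before to 30 bases after the start, 5′ to 3′, with the octamer in capitals. It begins at position -3 from the start in FANCD2, -49 in RAD54L and 2 in BRIP1. Whether the octamer has a part in the 12 h values was not tested. These matches are descriptions of letters and not of binding.
FANCD2 (chr3:10026287-10026466, plus strand): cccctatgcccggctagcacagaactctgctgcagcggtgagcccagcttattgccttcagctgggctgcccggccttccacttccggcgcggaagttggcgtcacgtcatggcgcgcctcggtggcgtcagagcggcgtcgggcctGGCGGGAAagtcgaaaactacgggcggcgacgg
RAD54L (chr1:46247538-46247717, plus strand): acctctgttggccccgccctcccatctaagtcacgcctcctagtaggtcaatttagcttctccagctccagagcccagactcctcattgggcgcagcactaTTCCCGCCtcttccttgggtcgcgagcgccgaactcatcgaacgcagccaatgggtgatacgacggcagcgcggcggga
BRIP1 (chr17:61863499-61863678, minus strand): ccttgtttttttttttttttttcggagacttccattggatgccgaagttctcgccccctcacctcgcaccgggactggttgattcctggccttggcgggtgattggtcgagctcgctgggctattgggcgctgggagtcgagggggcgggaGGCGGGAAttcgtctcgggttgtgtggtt

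The rest of the pathway was followed through lists of genes by role, and none of their genes was called at 2 h. The counts at 12 h are to be read against 54.3% of all genes below the DMSO mean, 35.6% below both DMSO libraries and 3.76% more than 2-fold below the mean. The share below both is no like baseline for a list whose DMSO libraries lie further apart. In the list of S-phase replication genes, for instance, their median difference was -0.94, against -0.06 over all genes. Among 9 genes that assist strand exchange, all 9 were lower at 12 h than the DMSO mean (median -0.50), 5 lay below both DMSO libraries and 1, RAD51B, was more than 2-fold lower (-1.16). RAD54B was next (-0.74), and SWI5 (-0.03) and SWSAP1 (-0.09) were at the other end. SWSAP1 was also the 1 gene of this list past 2-fold at 6 h, as were 8.76% of all genes. It was lower there, at an FPKM of 0.52 against 1.54 and 1.18 in DMSO, a weak value in a single library.

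Genes of end resection lay low at 12 h with less difference between the DMSO libraries. Of 7 genes, 6 were below both DMSO libraries, with a median of -0.48. The helicase BLM was at 9.75 and 6.76 with DMSO against 4.49 at 12 h, and the nuclease MRE11A at 15.2 and 11.6 with DMSO against 7.88 at 12 h. EXO1 (-0.24) and RBBP8 (-0.42) differed least. In the BRCA1-A complex, which holds BRCA1 at ubiquitinated chromatin, 5 of 5 genes were below both DMSO libraries, from FAM175A (-0.50) and BRE (-0.46) to UIMC1 (-0.26) and BABAM1 (-0.15). Genes that limit resection had a median of -0.16, with 3 of 6 below both, TP53BP1 (-0.47) and RIF1 (-0.30) lowest, and C20orf196 (0.00) and MAD2L2 (0.05) highest.

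The Fanconi anaemia genes around FANCD2 were split. Of 17 genes, 16 were below the DMSO mean at 12 h (median -0.41). Below both DMSO libraries, which differed by a median of -0.91 in this list, were 7 (35.6% of all genes). The median of the list against the recovered library was 0.07. More than 2-fold lower were 3: SLX4, FANCI and UBE2T, the last of which was picked after its values were seen. SLX4, a scaffold for nucleases, was at 3.17 and 3.12 in DMSO, 2.89 and 2.51 after 2 h, 1.93 after 6 h and 1.34 after 12 h. Its DMSO libraries hardly differed, unlike those of FANCD2. UBE2T, the ubiquitin-conjugating enzyme that acts on FANCD2, was at 81.6 and 42.6 with DMSO against 29.2 at 12 h. FANCF (-0.09) and C1orf86 (0.13) were the highest of the list.

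Helicases and nucleases that resolve joint molecules had a median of -0.40 over 14 genes, of which 10 were below both DMSO libraries. EME1, a subunit of a structure-specific nuclease, was at 11.9 and 7.37 with DMSO against 3.92 at 12 h, and FIGNL1 was next (-0.95), while HELQ (0.25) and TOP3A (0.35) were higher than DMSO. The 14 checkpoint and RPA genes had a median of -0.31 with 7 below both, from ATM (-0.68) and ATR (-0.50) to RAD9A (0.30) and HUS1 (0.62). In non-homologous end joining, the competing repair route, the median of 9 genes was -0.11. Below both DMSO libraries, which differed by a median of -0.66 in these genes, were 3. PRKDC (-0.92) and APLF (-0.84) were lowest there, and DCLRE1C (0.33) and XRCC4 (0.51) highest.

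The 21 replication genes had a 12 h median of -0.42 against the DMSO mean, near that of the 9 repair genes, with 18 below that mean. Below both DMSO libraries, which differed by a median of -0.94 in these genes, were 6. GINS1 (-1.01) and FEN1 (-0.87) were lowest, CDC6 (0.59) and CCNE1 (1.35) highest. All 21 were lower at 12 h than at 6 h, as were all 9 repair genes. Among 17 regulators of S-phase and recombination genes the median was -0.14. E2F8 (-1.01) and RBL1 (-0.96), which repress E2F targets, were lowest, and CCNK (0.33) and CDKN1A (2.11) highest. MKI67 was at 21.1 and TOP2A at 46.5 at 12 h, each below both DMSO libraries. The part of cycling in the 12 h values was not tested.

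**Figure D4:**
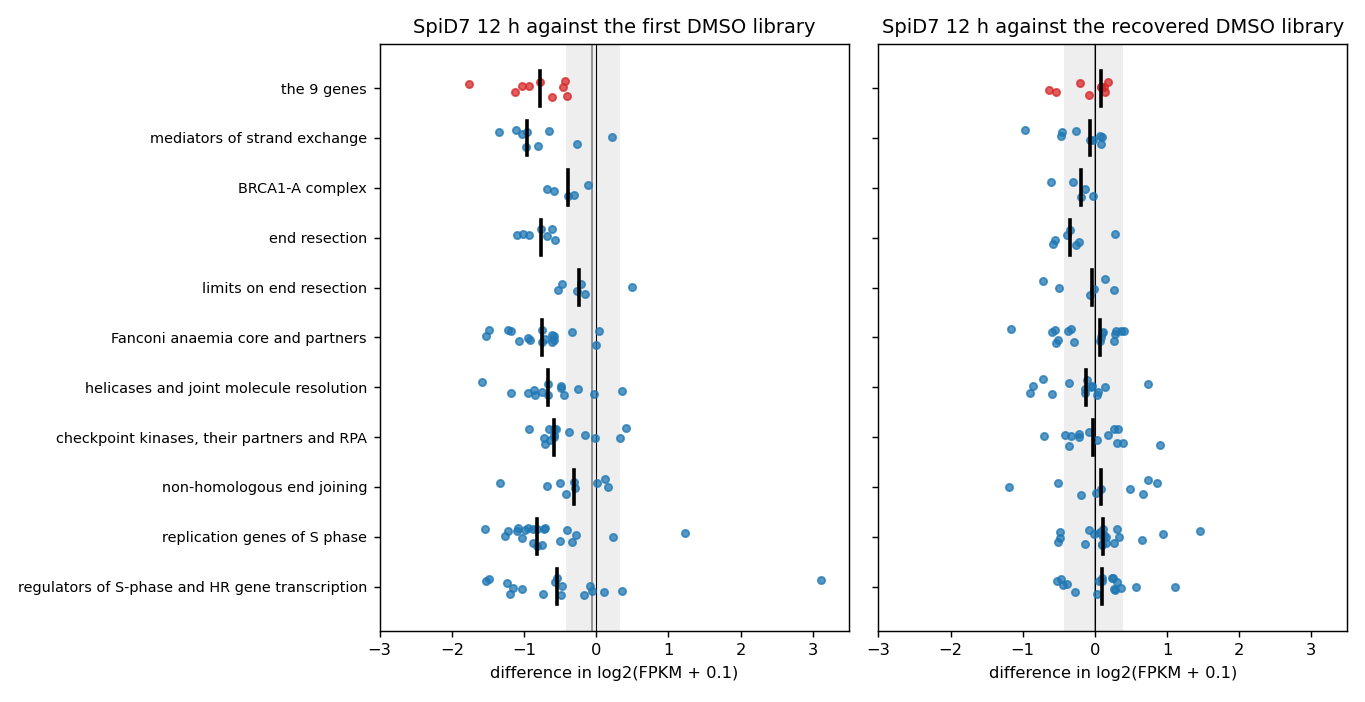
Difference in log2(FPKM + 0.1) of the 12 h library from the first (left) and recovered (right) DMSO library for the 9 genes (red) and 10 gene lists (blue), 1 point a gene, with black bars for medians, a grey band for the middle 50% of all genes and a grey line for their median. The median of the 9 genes is -0.78 on the left and 0.08 on the right, and the lists shift between the panels in the same way.

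Within the group, the members followed each other across the 6 libraries to unequal degrees. The correlation of each gene's log2 values with the median profile of the 9, of which it is a part, was highest for BRCA1 (0.994) and lowest for RAD51D (0.821). Outside the group, the genes most like this profile were KIAA0196 (Pearson r = 0.999), ORC5 (0.997), POLQ (0.997), NUP214 (0.996) and RACGAP1 (0.996), each over 6 libraries. The correlations describe 6 points that include the difference between replicates, and no p is given. POLQ, the polymerase of a break repair route that uses short homologies, was at 6.93 and 3.51 in DMSO, 8.61 and 4.28 after 2 h, 7.04 after 6 h and 3.22 after 12 h.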

How the data were processed

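RNA of 6 OVCAR5 libraries was measured. By the study's methods and the submitters' processing notes, the authors used Trim Galore for trimming, TopHat2 2.0.8 for alignment, and Cufflinks and Cuffdiff 2.1.1 for expression. The methods name a mouse build. The definitions deposited with the table, however, give loci on hg38. The deposited values are FPKM, scaled by Cuffdiff within each of the authors' comparisons. The authors' fold changes, p-values and q-values were not used. The shared DMSO library was 0.972 and 0.994 times as high in the 6 h and 12 h comparisons as in that of the first 2 h library, and these libraries were divided by those values.

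The columns of the remaining comparison were read as the authors' means, because 0 rows above 0 in the first library were at 0 there. Among rows with an FPKM over 1, the lowest ratios to that library also gathered at about 0.526 (DMSO, 45 rows) or 0.509 (2 h, 70 rows). This share was set from a low quantile of the ratios, and rows below it were not counted. The reading as means was made after the values were seen. Replicate 2 was obtained by subtracting this share and dividing by it, and a remainder under 0.2% of the mean was set to 0. Rows of a symbol were summed (33085 rows). A mean FPKM of at least 1 was required and log2(FPKM + 0.1) was used. limma 3.58.1 in R 4.3.3 compared all genes at 2 h, without a block. Tables were handled with pandas 2.3.3 in Python 3.11.15, the fit was tested on simulated data, and the recovery on a known mean of 2 deposited libraries. Other pseudocounts, filters, scalings, a length correction, a replicate block and leaving out each library were tried as alternatives. The members, lists and tests were chosen with earlier results of these data known. Named genes are all members, the 2 highest and 2 lowest of each list at 12 h, markers, and the 5 genes most correlated with the members' median profile. UBE2T and genes that overlap a member's locus were named outside this rule, after their values were seen. A gene that this rule also names, and the values that need it, are not reported here.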

Additional observations from a re-analysis of the deposited data

How the results depend on the processing

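Leaving out a library moved the values most. The members' median log2 difference lay between -0.22 and 0.53 at 2 h, between -0.25 and 0.68 at 6 h and between -0.78 and 0.080 at 12 h with each library left out in turn, the highest value at 6 h and 12 h being that without the first DMSO library. Members more than 2-fold lower at 12 h numbered 0 without the first and 3 without the recovered DMSO library. At 2 h the sign changed when a library was left out for BRCA1 (range -0.20 to 0.66), BARD1 (-0.14 to 0.53), PALB2 (-0.28 to 0.51), RAD51C (-0.38 to 0.20), RAD51D (-0.36 to 0.16), RAD54L (-0.81 to 0.36) and FANCD2 (-0.57 to 0.59). FANCD2 at 2 h was -0.016 after median-ratio scaling and -0.023 after length correction or length correction with the replicate block. No member was called at 2 h under any alternative (lowest adjusted p 0.313 from limma).

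Over all genes the number called at 2 h was 1 with a pseudocount of 1, 6 with 0.01, 0 without a filter, 1 after median-ratio and 1 after upper-quartile scaling, 5 with an intensity trend, and 0 to 21 with a library left out. The replicate block gave 0 called genes, with or without length correction, and 1874 with an unadjusted p under 0.05, against 378 without it. In this balanced layout the block cannot change a difference, so that the members' median stayed at 0.12. Their standard errors were 0.06 to 0.14 with the block, against 0.26 to 0.63 without it. Deviations of same-numbered libraries had a correlation of 0.369 over genes, and the labels tie them by number alone. Under the block an unadjusted p under 0.05 was found for 2 of the 9 members and for 1874 of all 13287 genes. The 2 members, BRCA2 and BRIP1, had unadjusted p of 0.0128 and 0.0320 (adjusted p = 0.329 and 0.344 from limma). Using only the first libraries, only the recovered ones (both added after the data were seen) or the authors' mean columns gave a members' median of 0.13, 0.04 and 0.10. With no read counts in the table, the number of reads behind low members such as BRIP1 cannot be given.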

Other observations

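A few cell-cycle genes of the lists stood apart from the repair genes. CCNE1, the cyclin of S-phase entry, had an FPKM of 9.31 and 7.94 in DMSO, 11.9 and 10.2 after 2 h, 22.9 after 6 h and 22.0 after 12 h, above both DMSO libraries in each SpiD7 library. CDC6, which loads the replicative helicase, was at 77.4 and 47.3 in DMSO, 79.6 and 47.3 after 2 h, 122 after 6 h and 91.0 after 12 h. CDKN1A, the CDK inhibitor p21, was at 2.71 and 11.1 in DMSO, 16.7 and 23.1 after 2 h, 37.7 after 6 h and 24.1 after 12 h. It was the 1 gene of the regulator list more than 2-fold away from DMSO at 2 h, and it was not called there. HUS1, part of the checkpoint clamp, was at 13.7 and 9.14 with DMSO against 17.2 at 12 h.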
